A study of Rattus norvegicus with 12 samples.

Results

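The transcripts described here are those of 3 ErbB receptors, Egfr, Erbb2 and Erbb3, and of 3 inhibitors that act on the receptors themselves, Errfi1, Lrig1 and Cbl. They were found as the rows whose platform annotation gives one of these symbols, which took 11 probe sets for the 6 genes, of 31099 probe sets and 14218 named genes on the array. For a gene with several probe sets, the brightest one, by its mean over the 12 arrays, leads. The RNA was that of rat astrocytes grown in primary culture from the optic nerve head, the place where the optic nerve begins. The groups are epidermal growth factor (EGF) for 4 h, the control for it, EGF for 12 h and the control for that, with 3 arrays in every group and 12 altogether. The strain, age and sex of the rats and the dose of EGF are not given in the sources used here, and the labels do not say whether replicates were separate cultures. The p-values measure the spread between these samples, which may be technical.

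ErbB receptors are tyrosine kinases of the cell surface that pair when a ligand binds. The EGF receptor, encoded by Egfr, binds EGF and related ligands, ErbB2 binds no known ligand and acts as a partner, and ErbB3 binds neuregulins but has very weak kinase activity. Signalling is limited at the receptor by Errfi1 (also called Mig6 or RALT), which binds the kinase domain and blocks it. Lrig1 is a membrane protein that binds ErbB receptors and lowers their amount, and Cbl is a ubiquitin ligase that marks the activated receptor for degradation. In astrocytes the EGF receptor is known for its rise in reactive cells.

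The sequences before the transcription starts of the inhibitors with the largest responses and of the receptor for EGF are shown, so that the regions in front of the responding genes can be compared. They are the 250 bases before the start in RefSeq's GRCr8 assembly, for Errfi1 chr5:166606591-166606840 (+ strand), for Lrig1 chr4:128788220-128788469 (- strand) and for Egfr chr14:95378376-95378625 (+ strand). Capitals mark GC boxes (GGGCGG) and a TATA box (TATAAA), searched on both strands.
Errfi1: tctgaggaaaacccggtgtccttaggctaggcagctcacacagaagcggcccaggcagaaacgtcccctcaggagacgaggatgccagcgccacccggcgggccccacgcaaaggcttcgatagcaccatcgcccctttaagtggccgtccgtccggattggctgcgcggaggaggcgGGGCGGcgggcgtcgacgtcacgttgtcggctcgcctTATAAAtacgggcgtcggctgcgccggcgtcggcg
Lrig1: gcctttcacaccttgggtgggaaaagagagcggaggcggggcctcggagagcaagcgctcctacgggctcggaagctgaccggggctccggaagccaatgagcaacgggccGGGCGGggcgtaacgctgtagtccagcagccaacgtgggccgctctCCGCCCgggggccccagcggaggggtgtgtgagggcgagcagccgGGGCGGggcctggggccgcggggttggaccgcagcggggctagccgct
Egfr: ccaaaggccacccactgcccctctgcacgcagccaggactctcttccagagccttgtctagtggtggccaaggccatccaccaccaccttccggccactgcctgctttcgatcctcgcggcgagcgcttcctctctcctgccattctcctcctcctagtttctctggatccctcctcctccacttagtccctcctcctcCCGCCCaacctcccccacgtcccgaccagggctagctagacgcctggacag
The table held 5 of the 6 genes. GC boxes numbered 1 before Errfi1, 3 before Lrig1 and 1 before Egfr, and 30.5% of all 33469 windows of the same length held at least 1. Errfi1 had a TATA box that begins at position -35, a motif that 12.9% of windows held. None of the windows of the 5 genes held an AP-1 site (TGANTCA, in 6.34% of windows), a cAMP response element (TGACGTCA, 1.59%), an E-box (CACGTG, 5.59%), an Egr site (GCGTGGGCG, 0.478%) or a CArG box (1.50%). A match is a description of the letters in this window. The GC content was 67.2% for Errfi1, 73.2% for Lrig1 and 63.6% for Egfr, against a median of 51.2% over all windows.

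Values are array signals on a linear scale. Log2 fold changes are on the scale of log2(signal + 24.4), which understates the change of low genes, with standard errors (SE) from limma pooled over the 4 groups and Benjamini-Hochberg adjustment over 18625 tested probe sets, with a threshold of 0.05. Probe sets with a mean signal under 215.4 were too dim to be tested. The median SE was 0.23 for each comparison of EGF with control, and with 3 arrays a group the precision is limited by their number. The arrays form 4 sets by their time and control probe sets. At 4 h both replicate 3 arrays carried a strong BioD hybridisation control (31268.9 and 34315.0), a signal that never exceeded 132.5 elsewhere. At 12 h the actin 3' to 5' signal ratio was 11.1 to 21.7 on 5 arrays, and 1.24 on EGF replicate 3, within the 1.20 to 1.61 of the 4 h arrays. Values within these sets are given for the 6 genes. The median log2 fold change over tested probe sets was -0.15 at 4 h and -0.06 at 12 h. Centring each array on its median over all probe sets moved these to 0.04 and 0.01.

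The EGF receptor transcript was higher than control after 4 h of EGF and lower than control after 12 h. At 4 h the Egfr signal was 5095.2, 5673.5 and 5966.8 in the controls and 8939.1, 8075.2 and 7316.8 with EGF. All 3 EGF arrays lay above all 3 controls, at means of 8110.4 ± 811.7 against 5578 ± 443.5 (SD, n = 3). Egfr rose by a log2 fold change of 0.54 ± 0.13 (SE, adjusted p = 0.00924), which was 0.66 in replicates 1 and 2 and 0.29 in the replicate 3 pair. At 12 h the signal was 8411.8, 8278.2 and 7295.1 in the controls and 6572.4, 5072.6 and 5292.6 with EGF, and again the groups did not overlap. Egfr fell at 12 h, with a log2 fold change of -0.51 ± 0.13 (adjusted p = 0.00978) and means of 5646 ± 809.9 against 7995 ± 609.8. Without EGF replicate 3 it was -0.46 (adjusted p = 0.015), and with each array centred over all probe sets it was -0.43 and did not pass (adjusted p = 0.0604). The effects at 4 h and 12 h differed by -1.04 ± 0.19 (adjusted p = 0.00375).

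The controls of the experiments stood apart for Egfr as well, with every 12 h control above every 4 h control. The 4 h control and the 12 h EGF group, the lowest of the 4, overlapped, and so did the 12 h control and the 4 h EGF group, the highest. Time in culture and the set of arrays cannot be told apart between the experiments. Markers of other cell types that moved with these comparisons are given at the end.

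Erbb2 passed in neither comparison. Its signal at 4 h was 1120.7, 1188.4 and 973.3 in the controls and 909.1, 1026.6 and 637.7 with EGF, and the groups overlapped through EGF replicate 2. The log2 fold change was -0.36 ± 0.20 (adjusted p = 0.199), and it was -0.25 in replicates 1 and 2 and -0.59 in the replicate 3 pair. With 1 array left out it ran from -0.50 (without EGF replicate 2) to -0.17 (without EGF replicate 3). At 12 h the signal was 1010.9, 1022.2 and 1259.2 in the controls and 849.4, 888.6 and 721.8 with EGF. These arrays did not overlap, yet the log2 fold change of -0.41 ± 0.20 missed the threshold (adjusted p = 0.128). Both estimates point down, and a p that misses the threshold does not show that the level was the same.

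Erbb3 lay too near background to be tested. Its signal was 130.1, 66.2 and 295.5 in the 4 h controls and 67.1, 96.2 and 63.5 with EGF, and 206.7, 28.1 and 38.9 in the 12 h controls against 50.0, 27.0 and 128.2 with EGF. The groups overlapped at both times, and the values lay low among all signals, whose 10th percentile is 24.4 and whose 25th is 96.8. In a fit with no filter on dim probe sets, the adjusted p was 0.537 at 4 h and 0.925 at 12 h. The fourth receptor of the family, Erbb4, which binds neuregulins, had group means of 10.7 to 44.2 and was too dim as well.

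**Figure D1:**
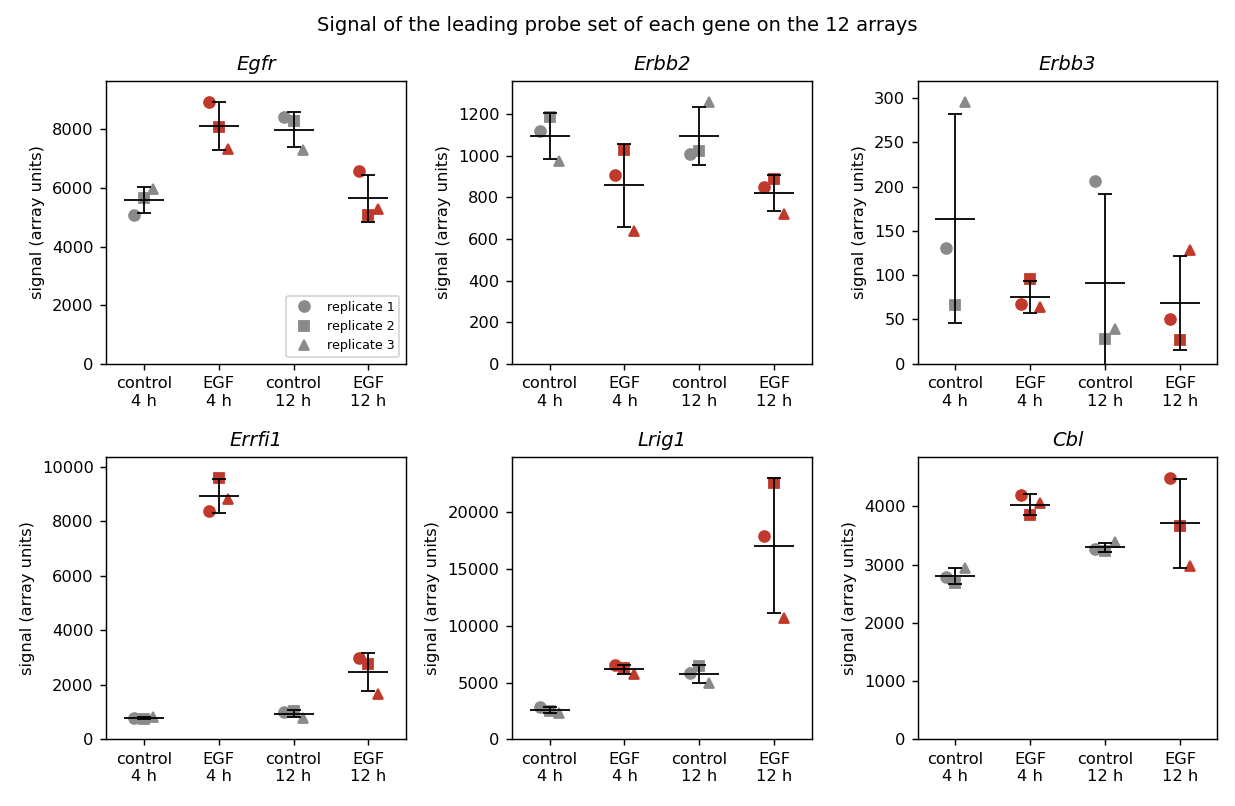
Signal of the leading probe set of each gene on every array (linear axis from 0, a separate scale for each gene), with grey points for control, red points for EGF, marker shape for the replicate number, and bars for the mean ± SD of 3 arrays. Errfi1 is highest at 4 h of EGF and Lrig1 at 12 h, Egfr is above control at 4 h and below it at 12 h, and the Erbb3 bars, of which 1 runs below 0 and is clipped, overlap.

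Among the inhibitors, Errfi1 had the largest log2 fold change at 4 h, and Lrig1 at 12 h. The Errfi1 signal was 776.5, 748.8 and 807.6 in the 4 h controls and 8363.5, 9600.2 and 8820.4 after 4 h of EGF. Every EGF array was far above every control, 8928 ± 625.3 against 777.6 ± 29.4, and Errfi1 rose by a log2 fold change of 3.48 ± 0.20 (adjusted p = 4.86e-08), an 11.1-fold change on this scale. The replicate 3 pair alone gave 3.41 and replicates 1 and 2 gave 3.51. At 12 h the signal was 988.9, 1058.5 and 794.1 in the controls and 2969.5, 2753.0 and 1683.8 with EGF. Errfi1 was still higher, at 1.33 ± 0.20 (adjusted p = 1.60e-04), and EGF replicate 3 was the lowest of its group. Without that array the log2 fold change was 1.58. The effect was smaller at 12 h than at 4 h, a difference of -2.15 on the log2 scale (SE 0.28, adjusted p = 3.51e-04). The 4 h and 12 h controls overlapped.

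Lrig1 rose at both times. Its signal was 2877.7, 2459.3 and 2353.2 in the 4 h controls and 6515.7, 6318.3 and 5731.4 with EGF, with no overlap. The log2 fold change was 1.27 ± 0.22 (adjusted p = 7.27e-04), and it was 1.26 in replicates 1 and 2 and 1.28 in the replicate 3 pair. At 12 h the controls gave 5874.9, 6469.0 and 4938.8 and the EGF arrays 17892.4, 22603.4 and 10725.1. The EGF arrays lay above the controls but were spread widely, 17074 ± 5981 against 5761 ± 771.4, with EGF replicate 3 the lowest. The log2 fold change was 1.51 ± 0.22 (adjusted p = 1.27e-04), and 1.81 without that array. The effects at the 2 times differed by 0.24 ± 0.31 and did not pass (adjusted p = 0.668), while with array sets blocked the difference was 0.54 and passed (adjusted p = 0.0354). Without EGF 12 h replicate 2 the difference was 0.00 (adjusted p = 0.994), and without EGF 12 h replicate 3 it was 0.54 and did not pass (adjusted p = 0.0747). The 12 h controls and the 4 h EGF arrays overlapped, and every 12 h control lay above every 4 h control.

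Cbl moved less. Its leading probe set read 2784.3, 2689.5 and 2949.2 in the 4 h controls and 4194.4, 3845.3 and 4058.2 with EGF. The groups did not overlap, at 4033 ± 175.9 against 2808 ± 131.4, and Cbl rose by 0.52 ± 0.14 (adjusted p = 0.0159), which was 0.55 in replicates 1 and 2 and 0.46 in the replicate 3 pair. The call was lost without EGF replicate 1 (adjusted p = 0.0569), without control replicate 2 (0.0582) and without the replicate 3 pair (0.0566). At 12 h the controls gave 3269.3, 3242.4 and 3388.1 and the EGF arrays 4494.8, 3657.1 and 2979.5. EGF replicates 1 and 2 lay above the controls and EGF replicate 3 below them, and the log2 fold change of 0.15 ± 0.14 did not pass (adjusted p = 0.451). With array sets blocked, which takes the 12 h effect from the other arrays, it was 0.30 and passed (adjusted p = 0.0427). Without EGF replicate 1 it was 0.00 (adjusted p = 0.997), and without EGF replicate 3 it was 0.30 and did not pass (adjusted p = 0.0703).

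**Figure D2:**
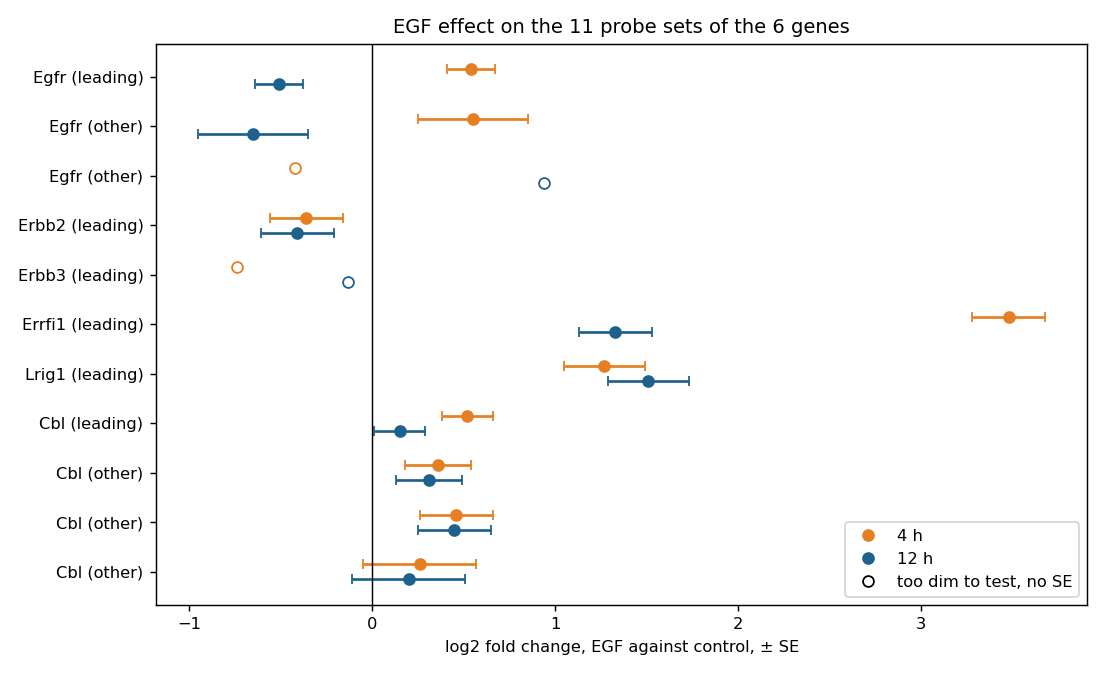
Log2 fold change of EGF against control for each of the 11 probe sets, orange at 4 h and blue at 12 h, with bars for the SE and open points for the 2 probe sets too dim to test. Errfi1 lies at 3.48 and 1.33 and Lrig1 at 1.27 and 1.51, while the leading Egfr probe set lies at 0.54 and -0.51.

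The other probe sets of a gene carry the same symbol in the platform annotation, and they can differ in signal and in spread. The next probe set of Egfr had log2 fold changes of 0.55 ± 0.30 at 4 h (adjusted p = 0.19) and -0.65 ± 0.30 at 12 h (adjusted p = 0.102), which point the same way as the leading one without passing. Its 4 h signal was 3534.5, 3282.1 and 5506.1 in the controls and 4425.1, 5077.5 and 8988.3 with EGF. Both replicate 3 arrays were the highest of their groups, so that the groups overlapped, although EGF was higher than the control of the same number in all 3 cases. At 12 h it read 7685.7, 6833.9 and 4488.9 in the controls and 5019.3, 4098.2 and 2935.2 with EGF, and the groups overlapped. The difference between the times was -1.20 ± 0.42 (adjusted p = 0.0821). The third probe set of Egfr was too dim to be tested, with array signals from 52.2 to 316.8, and pointed the other way at both times (-0.42 and 0.94). Its groups overlapped at 4 h. At 12 h they did not, with 230.2, 263.6 and 316.8 with EGF above 208.6, 108.5 and 90.8 in the controls.

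For Cbl the other 3 probe sets also had higher means with EGF at both times, and none passed, where 27.8% of all tested probe sets were called at 4 h and 36.1% at 12 h. At 4 h their log2 fold changes were 0.36 ± 0.18 (adjusted p = 0.15), 0.46 ± 0.20 (0.112) and 0.26 ± 0.31 (0.587). At 12 h they were 0.31 ± 0.18 (0.191), 0.45 ± 0.20 (0.104) and 0.20 ± 0.31 (0.65). Erbb2, Erbb3, Errfi1 and Lrig1 had 1 probe set each.

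**Figure D3:**
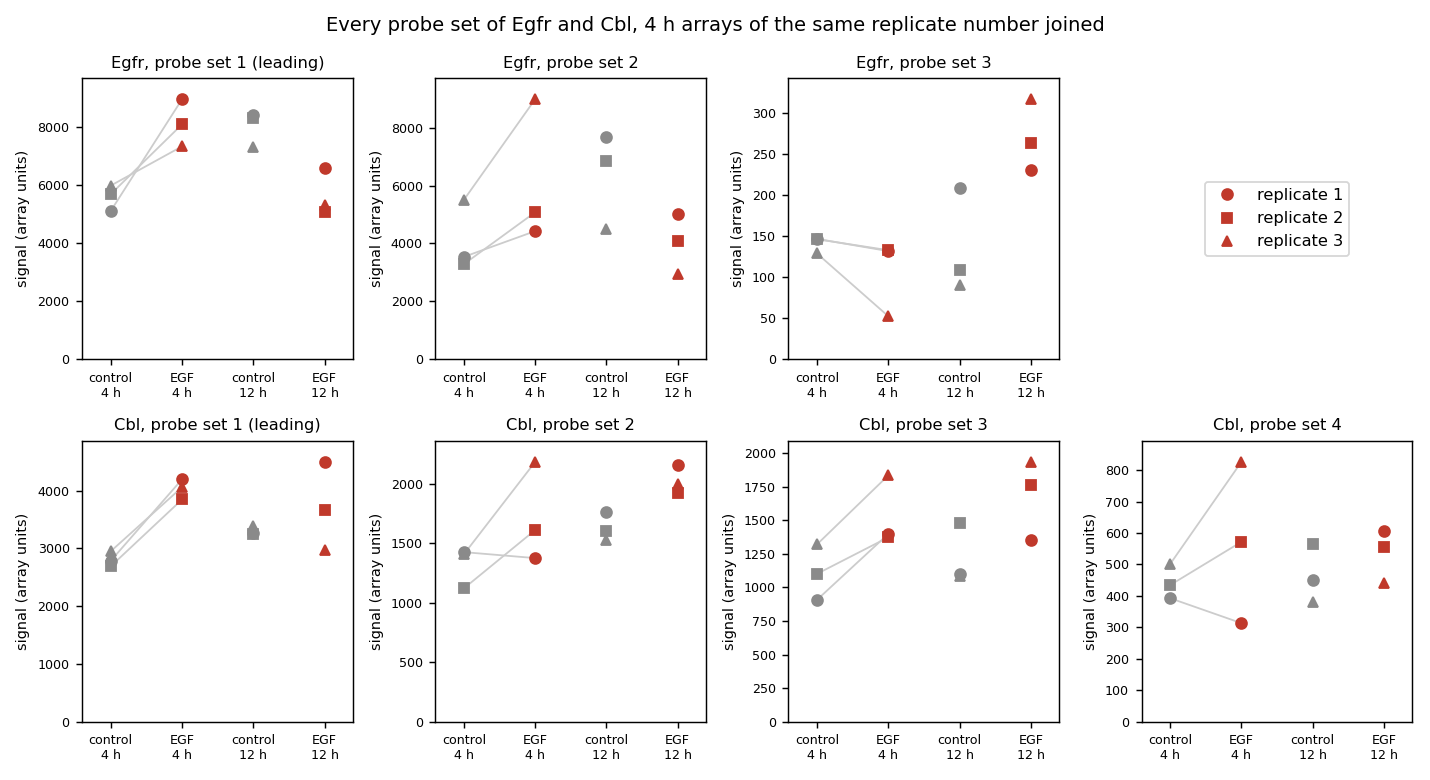
Signal of every probe set of Egfr (top) and Cbl (bottom) on each array (linear axes from 0), grey for control and red for EGF, with lines between 4 h arrays of the same replicate number. The first and second Egfr probe sets rise along each line at 4 h, and at 12 h their means are lower with EGF, with overlap for the second.

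Of the 5 tested genes, 4 were higher, 0 lower and 1 passed in neither direction at 4 h, where 32.4% of all 10261 tested genes were called (12.8% higher and 19.6% lower). At 12 h 2 were higher, 1 was lower and 2 passed in neither direction, where 40.8% of genes were called (16.5% higher and 24.2% lower). The groups did not overlap for 4 of the 5 at 4 h and for 4 of the 5 at 12 h, against 52.7% and 52.6% of all tested genes. EGF arrays were all above control for 19.4% of genes and all below for 33.3% at 4 h, and for 20.9% and 31.8% at 12 h. The median log2 fold change of the 5 was 0.54 at 4 h and 0.15 at 12 h, and over all tested genes it was -0.17 and -0.09. Among all tested genes ordered by log2 fold change from the highest, Errfi1 was at rank 38 at 4 h and 474 at 12 h, and Lrig1 at rank 437 and 362. The effect differed between the times for 2 of the 5, Egfr and Errfi1, both with a lower effect at 12 h, as it did for 14.0% of genes (6.55% higher and 7.45% lower). With 5 genes these shares are a description only.

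The genes whose signal followed each member most closely over the 12 arrays were looked up by Pearson's r of log2(signal + 24.4), over groups and array sets together. Errfi1 ran most closely with Noc4l (r = 0.993), Eef1e1 (0.990) and Stard13 (0.984). Noc4l serves in ribosome assembly, and its log2 fold change was 1.18 ± 0.14 at 4 h and 0.55 ± 0.14 at 12 h. Lrig1 ran with Nup205 (0.985), Fasn (0.984) and Tmbim1 (0.982). Fasn encodes fatty acid synthase and had 0.72 ± 0.14 and 1.06 ± 0.14. Egfr ran with Fam184a (0.938), Arrdc3 (0.921) and Gtf3c4 (0.921). Arrdc3, an arrestin domain protein, changed from 0.80 ± 0.16 at 4 h to -0.68 ± 0.16 at 12 h. Cbl ran with Rbm15b (0.964), Tmem185b (0.949) and Desi1 (0.947), and Erbb2 with Ndufc1 (0.933), Garre1 (0.891) and C3 (0.889). For Erbb3, near background, the highest values were 0.822 with Commd5, 0.798 with Hp and 0.760 with Tmprss2. The arrays of a value share their groups and array sets, so these values are a description only.

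Among the close relatives, 1 passed the test at each time. Lrig3, a relative of Lrig1, fell at both times, with means of 2063 in the 4 h controls and 1219.7 with EGF (log2 fold change -0.75 ± 0.15, adjusted p = 0.00197). At 12 h it went from 4138 to 1245 (-1.71 ± 0.15, adjusted p = 1.33e-06), so that Lrig1 and Lrig3 had opposite signs in both comparisons. Cblb, a ubiquitin ligase related to Cbl, passed at neither time (0.32 ± 0.14, adjusted p = 0.115, and -0.30 ± 0.14, adjusted p = 0.117). Cbll1, a ubiquitin ligase of related name, had 0.32 ± 0.18 (adjusted p = 0.203) and -0.45 ± 0.18 (adjusted p = 0.0645), and Erbb4 and Cblc were too dim. Of the 3 tested genes on this list, 0 were higher and 1 lower at each time.

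Of the 7 tested EGF family ligands, 4 were higher and 0 lower at 4 h, and 2 were higher and 1 lower at 12 h. Areg (amphiregulin) had 6.63 ± 0.23 and 5.84 ± 0.23, Hbegf 2.88 ± 0.55 and 3.26 ± 0.55, and Ereg (epiregulin) 2.06 ± 0.29 at 4 h. Egf itself fell at 12 h (-1.72 ± 0.36, adjusted p = 0.00222), from a mean of 550.8 to 147.9. Egf was dim, with means of 217.5 in the 4 h controls and 140.7 with EGF. Its mean over all arrays, 264.2, passed the limit for testing largely through the 12 h controls. The 12 h EGF mean lay below that limit. Of 5 tested sheddases and partners, which release the ligands from the cell surface, 2 were higher and 0 lower at 4 h, Adam17 (0.74 ± 0.20) and Rhbdf1 (0.61 ± 0.15). At 12 h 1 was higher, Adam10 (1.28 ± 0.34), and 0 were lower. Adam10 was 0.75 without EGF replicate 3 (adjusted p = 0.00756), and the 4 h call of Adam17 was lost without EGF replicate 2 (adjusted p = 0.0541), control replicate 1 (0.0628) or control replicate 2 (0.0634). The median log2 fold change of the sheddases was 0.47 and 0.21.

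The counts of the lists stand beside the 32.4% of all tested genes called at 4 h and the 40.8% called at 12 h. Of 27 tested genes of receptor ubiquitination, endocytosis and sorting, 29.6% were called at 4 h and 33.3% at 12 h, both below those shares: 3 were higher and 5 lower at 4 h (median -0.09), and 7 were higher and 2 lower at 12 h (median 0.22). Sh3kbp1 (also CIN85), an adaptor that binds Cbl, was -0.24 ± 0.25 at 4 h (adjusted p = 0.53) and rose by 2.62 ± 0.25 at 12 h (adjusted p = 3.36e-06), from 845.9 to 5356. The difference between its effects was 2.85 (adjusted p = 2.48e-04). Ubash3b, which binds Cbl and dephosphorylates receptors, rose by 1.16 ± 0.28 and 1.69 ± 0.28. Rab11a of the recycling endosome rose by 0.77 ± 0.12 and 1.28 ± 0.12, and Epn2, an endocytic adaptor, by 0.67 ± 0.13 and 0.70 ± 0.13. Usp8, which removes ubiquitin from receptors on endosomes, fell at both times (-0.84 ± 0.16 and -0.63 ± 0.16).

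Of 10 tested receptor phosphatases and SOCS inhibitors, 4 were higher and 1 lower at 4 h (median 0.19), and 4 were higher and 2 lower at 12 h (median 0.58), in all 5 of the 10 at 4 h and 6 of the 10 at 12 h. Socs5, which acts in degradation of the EGF receptor, rose by 2.38 ± 0.14 (adjusted p = 5.47e-08) and 1.74 ± 0.14 (adjusted p = 5.89e-07). The phosphatases Ptpn12 (1.23 ± 0.11 and 1.02 ± 0.11) and Ptpn1 (1.15 ± 0.15 and 0.88 ± 0.15) rose as well. The receptor-type phosphatase Ptprk fell, with -0.80 ± 0.22 at 4 h and -1.82 ± 0.22 at 12 h.

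Downstream of the receptors, 4 of 14 tested adaptors and members of the RAS to ERK cascade were higher and 2 lower at 4 h (median -0.05), and 5 were higher and 3 lower at 12 h (median 0.06), in all 42.9% of the list at 4 h and 57.1% at 12 h. Rasa1, which turns RAS off, rose by 1.67 ± 0.19 and 2.94 ± 0.19. The kinase Map2k1 rose by 0.75 ± 0.15 and 1.52 ± 0.15, and the adaptor Gab1 fell (-1.32 ± 0.20 and -1.55 ± 0.20). Of 13 tested genes of the PI3 kinase, PLC gamma, STAT and SRC branches, 2 were higher and 0 lower at 4 h (median 0.20), and 4 were higher and 2 lower at 12 h (median 0.29), in all 15.4% of the list at 4 h, below the share of all genes, and 46.2% at 12 h. Prkca, a protein kinase C, rose by 1.55 ± 0.24 and 1.32 ± 0.24. Pdpk1 rose at 4 h (0.65 ± 0.16), and at 12 h Fyn rose (0.86 ± 0.21) and Plcg1 fell (-0.64 ± 0.17), a call that was lost without control replicate 1 (adjusted p = 0.0584). In the fit that pairs arrays by replicate number, 3 genes of these branches were higher and 2 lower at 4 h, 2 were higher at 12 h, and 1 EGF family ligand was lower at 4 h. With no filter on dim probe sets 2 genes of these branches were higher at 12 h.

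**Figure D4:**
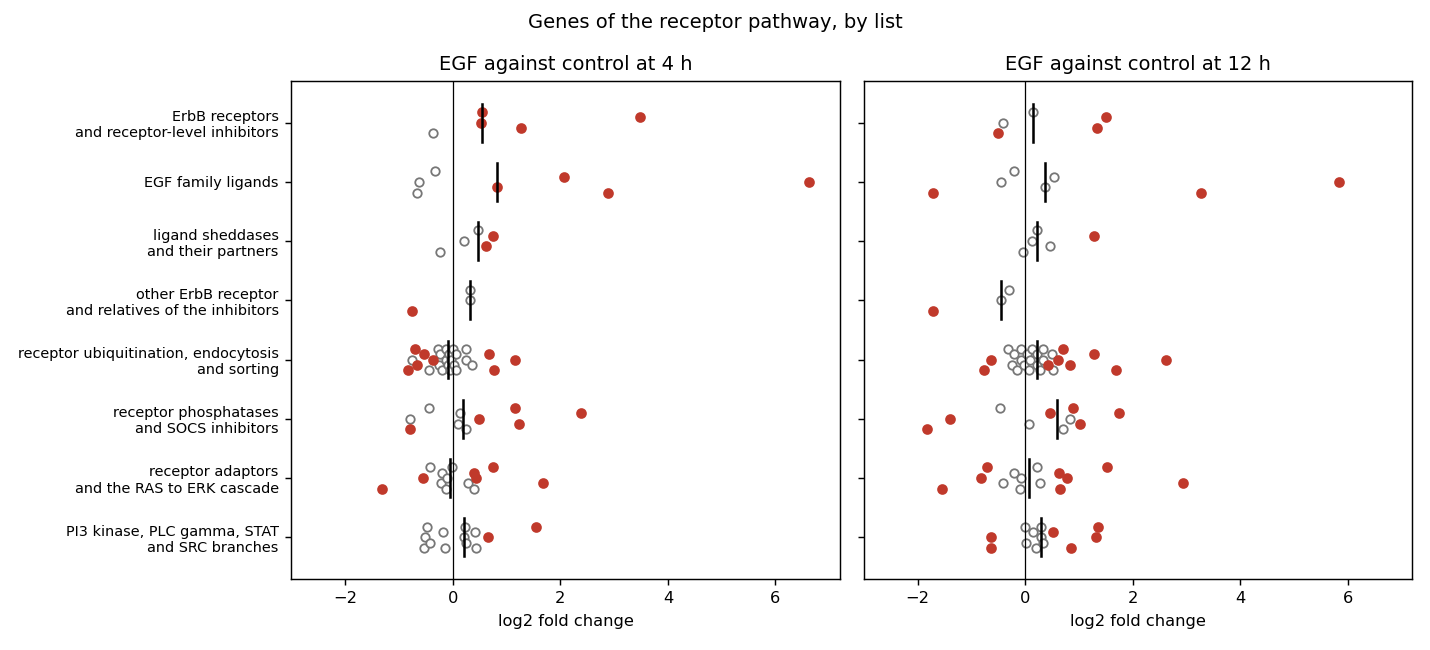
Log2 fold change of EGF against control at 4 h (left) and 12 h (right) for every tested gene of 8 lists, each point a gene, red where the adjusted p was under 0.05 and open where it was not, with a black line at the list's median. The ligand Areg lies at 6.63 and 5.84, and the list of ubiquitination and sorting genes runs on both sides of 0.

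The cultures were checked against markers. Vim and Gja1, found in cultured astrocytes, had group means of 62763 to 91773 and 62981 to 71814. Other tested astrocyte markers were dimmer, with 2980.1 to 7210.1 for Glul, 158.0 to 697.6 for Slc1a3 and 184.2 to 391.2 for S100b. Gfap, the defining astrocyte filament, was too dim to be tested, with group means of 130.1 to 215.3, and so were Slc1a2, Aqp4 and Aldh1l1. Of 7 tested astrocyte markers, 2 were higher and 0 lower at 4 h, Nes (2.37 ± 0.29) and Cd44 (2.80 ± 0.11). At 12 h the same 2 were higher, Nes at 2.36 ± 0.29 and Cd44 at 3.26 ± 0.11, and 1 was lower (Glul, -1.28 ± 0.15). The called markers were 28.6% and 42.9% of the list, near the 32.4% and 40.8% of all tested genes called at 4 h and 12 h. The counts of the other marker lists stand beside the same 32.4% and 40.8%, and with 8 or fewer tested genes a list they are a description only. Collagen genes, which mark fibroblasts and meningeal cells, were bright, with Col1a1 at group means of 33587 to 72051 and Col3a1 at 73825 to 100304. Of 8 fibroblast and meningeal markers, 1 was higher and 2 lower at 4 h, and 0 were higher and 6 lower at 12 h. Dcn had the largest fall at 12 h (-3.03 ± 0.16), and Postn was higher at 4 h (0.54 ± 0.14) and lower at 12 h (-0.55 ± 0.14). Col1a1 passed at neither time, and its 12 h EGF arrays ran from 18107.9 to 66392.4. The summed signal of the 8 markers was 251986 to 283302 in the 4 h controls and 222003 to 239149 with EGF. At 12 h it was 221037 to 264247 in the controls and 123267 to 192056 with EGF. Fewer cells of a type and less RNA per cell cannot be told apart in such samples. Of 4 tested oligodendrocyte lineage markers, 0 were higher and 2 lower at 4 h, and 1 was higher and 2 lower at 12 h. Mbp (-1.23 ± 0.19 and -1.24 ± 0.19) and Cnp (-0.99 ± 0.17 and -0.97 ± 0.17) were lower at both times. Cspg4 went the other way, with 1.12 ± 0.40 at 4 h (adjusted p = 0.0521) and 2.01 ± 0.40 at 12 h (adjusted p = 0.00152). The summed signal over 10 markers on the array was 6668 to 7787 and 4284 to 5081 at 4 h, controls first. At 12 h it was 9273 to 9751 and 4716 to 5953. Cnp and Mbp made up most of this sum, with means of 3688 and 2296 in the 4 h controls. Sox10, a marker of oligodendrocytes and Schwann cells, cells in which Erbb3 is known to act, had group means of 27.6 to 74.0. Other markers of these cells were brighter, with group means of 6557 to 18132 for Pmp22 and 1832 to 7115 for Cnp. Mbp had 707.3 to 2296 and Prx 536.2 to 1473, while Mog, Mobp, Olig1, Olig2, Ermn and Mal were too dim to be tested.

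Of 3 tested Schwann cell markers, 1 was higher and 0 lower at 4 h (Egr2, also an early response gene), and 1 was higher and 2 lower at 12 h. The sum over the 5 such markers on the array was 17768 to 19461 and 27748 to 29490 at 4 h, controls first. At 12 h it was 9504 to 11993 and 7963 to 10509. In the 4 h sum the Egr2 mean went from 1297 to 9110.1 and Pmp22 from 15962 to 18132 (adjusted p = 0.33). Prx went the other way, from 1473 to 1122 (adjusted p = 0.146). Of 2 tested endothelial and pericyte markers, 1 was lower at 4 h (Tek) and 2 were lower at 12 h (Tek and Pdgfrb). Pecam1, Kdr, Vwf, Cldn5 and Rgs5 of this list were too dim to be tested. The summed signal of the list was 7833 to 8540 and 5144 to 6442 at 4 h, controls first. At 12 h it was 3961 to 4830 and 1772 to 2807. Pdgfrb and Tek made up most of this sum, with means of 5282 and 2352 in the 4 h controls. Of 4 tested microglia and macrophage markers, none passed at 4 h and 1 was higher at 12 h (Cd68, 3.70 ± 0.58, from a mean of 62.1 to 924.1). Only the 12 h EGF mean of Cd68 lay above the limit for testing, so the rise itself brought this gene into the test. At 4 h its means were 47.2 in the controls and 72.4 with EGF. The microglia and macrophage list summed to 2158 to 2530 in the 4 h controls and 1796 to 2026 with EGF. At 12 h this list summed to 860 to 971 in the controls and 1802 to 2469 with EGF. None of the 7 neuron markers was bright enough to be tested. The part of these markers in the changes of Egfr, Errfi1, Lrig1 and Cbl was not tested.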

How the data were processed

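RNA was measured on 12 Affymetrix 1-colour arrays. The authors deposited linear signal intensities per probe set, and MAS5 is the tool named in the submitters' processing notes, without a version. Trimmed means (2%) lay between 1500.46 and 1500.56, so no array was rescaled. Groups and replicate numbers came from the sample titles, since every description reads as control. All 12 columns were used. Control probe sets (57) and 12417 with a mean signal below the 40th percentile (215.4) were left out, 18625 were tested, and an offset of 24.4 (the 10th percentile of the signals) was added before log2.

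Group means of all 12 arrays were fitted in R 4.3.3 by limma 3.58.1 (eBayes with an intensity trend, 8 residual degrees of freedom), two-sided, with Benjamini-Hochberg adjustment. The fit was tested on simulated data. Probe sets took their symbol from the platform annotation: 20832 had 1, 436 several and 9831 none. A gene is represented by its brightest tested probe set. Pairing was checked by the correlation of deviations from the group means between arrays of the same number. It was 0.121, 0.150 and 0.376 at 4 h, each over a limit of 0.1. Arrays of unlike number reached 0.142, 0.138 and -0.203 with them, so only replicate 3 stood clearly apart. At 12 h the correlation was 0.083, -0.111 and -0.103, each under the limit. The main fit did not pair the arrays. Within a time, arrays were split into sets at 1000 for the mean of the hybridisation controls and at 5 for actin's 3' to 5' ratio. The genes named are the 6 members, for each pathway list and time up to 3 passing genes of smallest p, Erbb4, Cblb and Lrig3, and the 3 genes most correlated with each member. Markers named, and Cbll1 and Cblc, were chosen after their values were seen. The members and lists were chosen with earlier results of these data known. Figures were drawn with matplotlib 3.10.9.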

Additional observations from a re-analysis of the deposited data

Results flagged for a closer look

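On the leading probe set of Egfr, the EGF effect differed between the times by -1.04 on the log2 scale (12 h minus 4 h). There, every EGF array lay above the controls at 4 h and below them at 12 h. The second probe set had overlapping groups at both times and a difference of -1.20 that did not pass (adjusted p = 0.0821). The third, too dim to be tested, was reversed at 1.35. The EGF effect on Errfi1 differed between the times by -2.15, with EGF arrays above the controls at both times.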

How the results depend on the processing

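Alternatives numbered 24, of which 12 left out 1 array each. One of them, centring over all probe sets, was chosen after seeing the data. The fold changes of the 5 tested members kept their direction and side of the threshold in 173 of 180 comparisons that left out 1 array and in 170 of 175 under other settings, while that of Erbb3 at 12 h, not tested, ran from -0.57 to 0.54. Cbl at 4 h ran from 0.49 to 0.55 with 1 array left out and was 0.55 without the replicate 3 pair, where it did not pass, and with array sets blocked Cbl at 12 h was 0.30 and the Lrig1 difference between times 0.54, both passing. With 1 array left out these ran from 0.00 to 0.30 and from 0.00 to 0.54, none passing, and Erbb2 at 4 h from -0.50 to -0.17. Egfr at 12 h, centred over all probe sets, was -0.43 and did not pass. The Erbb2 difference between times, near 0, was 0.04 with the set as a block and ran from -0.24 to 0.10 with 1 array left out. With other probe sets, Cbl at 4 h was 0.36, 0.46 and 0.26, none passing. Egfr with the second probe set was 0.55 at 4 h, -0.65 at 12 h and -1.20 between times, none passing. With the third, too dim to be tested, Egfr was reversed, at -0.42, 0.94 and 1.35. Probe sets lower at 4 h numbered 3068, 1522 when centred over all probe sets and 4960 with the set as a block. Those whose effect was higher at 12 h than at 4 h numbered 1015, 568 when centred and 2168 with the set as a block (647 to 1501 with 1 array left out), and those lower 1138, 1924 with the set as a block (757 to 1488). The cause was not tested. Centring over all probe sets moved the share of higher calls at 4 h from 40.8% to 63.7%, and centring over the tested ones to 53.1%. With the replicate block, 2144 probe sets were higher and 3076 lower at 4 h and 2929 and 3921 at 12 h, and no member's call changed. The counts of genes in the pathway lists stayed within 1.5 times in 342 of 384 comparisons with 1 array left out and 350 of 384 others.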
